A study of Danio rerio with 6 samples.

Results

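Pigment cells of the zebrafish (Danio rerio) trunk were followed through 8 genes: the tyrp1 gene ENSDARG00000056151, the ednrb gene ENSDARG00000089334, dct, tfap2e, mitfa, tyr, pmela and crestin. The members were given by gene ID or by symbol, and symbols were matched to Ensembl IDs with case ignored. Of the 8, 6 were matched among the 24789 genes of the tables. The symbols mitfa and crestin were not matched to a row and are not analysed here under those names. The tables hold 2 genes with the human name MITF and do not say which of them corresponds to mitfa, so both are given with their IDs.

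The libraries came from trunks of embryos of a qkia heterozygote cross, collected 24 to 26 h after fertilization, with head and yolk cut away. Control embryos (n = 3 libraries) were qkia+/+ or qkia+/- and carried a control morpholino. Loss of function embryos (n = 3) were qkia-/- siblings that carried a qkic morpholino, and each morpholino was given at 0.6 pmol. Morpholinos are antisense oligonucleotides that block translation or splicing of a transcript, and Quaking proteins bind RNA. Genotype and morpholino changed together and cannot be told apart, the embryos were assigned to groups by their appearance, and the labels do not give the number of embryos per library. Replicates are described only as biological triplicates, with nothing said of separate clutches, so the p-values speak only of the variation among these samples, which may be technical.

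Divided by its smallest step, each gene table summed to 38804265 to 44799398 reads. The labels give a mean of 27459238 sequenced reads per sample over 2 lanes, and whether that mean is per lane is not stated, so the read numbers behind the values may be overstated. The mutated gene qkia was at 67.5 ± 12.6 normalized reads in controls and 5.42 ± 1.86 in loss of function libraries (SD, n = 3 in each). Pairs of control libraries differed more from each other than pairs of loss of function libraries, with a chi-square per degree of freedom of 8.46 to 15.2 against 2.17 to 2.53. In the whole table, 20.0% of 18917 genes tested were called lower and 21.9% higher with loss of function, 41.9% in all, where a call is an adjusted p under 0.05 in limma.

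The neural crest is a transient population that leaves the dorsal neural tube and gives rise to pigment cells, peripheral neurons and glia. Its precursors depend on transcription factors such as Sox10, Foxd3 and the Tfap2 family. In melanophores, the black pigment cells, Mitf drives genes of melanin synthesis: Tyr performs the first steps from tyrosine, Dct and Tyrp1 act on later intermediates, and Pmel forms the fibrils on which melanin is laid down. Zebrafish also make yellow xanthophores, which hold pteridines and carotenoids, and reflective iridophores, which hold purine crystals. Endothelin, Kit and other receptors carry signals to crest-derived cells. Melanin begins to appear at about the stage at which these embryos were collected.

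Of the 6 matched members, 5 were lower with loss of function and 1, TYR, did not pass the test, where 41.9% of all genes were called and 20.0% were called lower. No member was higher in limma, where 21.9% of all genes were, and the number higher was also 0 at an unadjusted p under 0.05, in edgeR and in DESeq2. All loss of function values lay under all control values for 5 of the 6 members and for 25.4% of the genes tested. The members, and the lists below, were chosen with earlier results of these data known. Their counts beside all genes are therefore a description and no independent evidence. All 6 passed the filter on low values, and their values rested on 182 to 2706 reads per library. The median log2 change was -0.39 for the members and 0.00 over all genes tested. The falls were moderate: 7.87% of all genes tested had a log2 change as low as that of TFAP2E, the member with the largest fall, and 29.5% had one as low as that of pmela, the member with the smallest. In RNA from whole trunks, fewer cells of a type and less RNA per cell cannot be told apart.

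**Figure D1:**
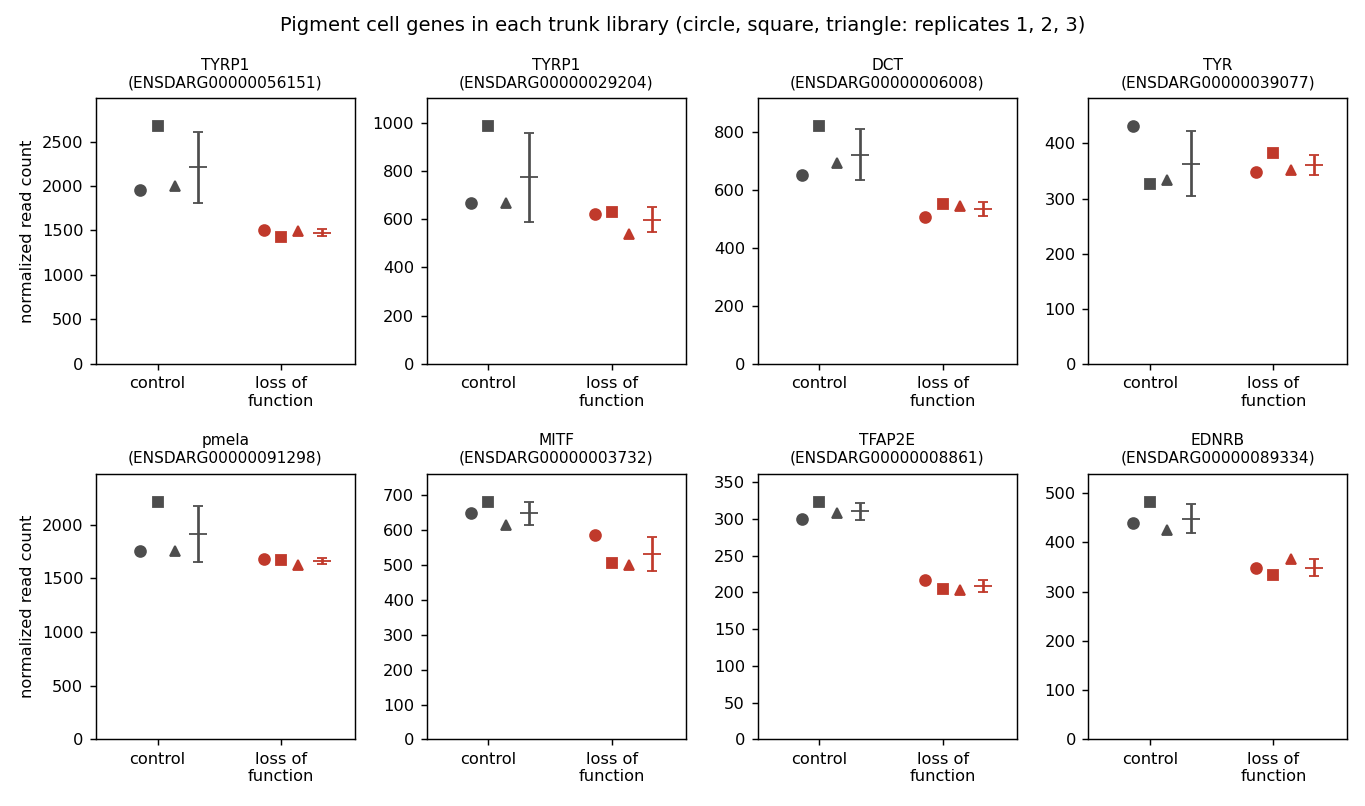
Normalized read count (vertical axes, from 0) of the 6 matched members, the expressed MITF gene and the other TYRP1 gene in each library; circles, squares and triangles are replicates 1, 2 and 3, and bars give the mean and SD of 3 libraries. TYR overlaps between the groups, whereas TFAP2E runs from 299.7 to 323 in controls and from 203 to 217 in loss of function libraries.

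Of the melanin synthesis genes, TYRP1 (ENSDARG00000056151), whose product acts late in melanin synthesis, had normalized read counts of 1960.2, 2670.2 and 2004 in control replicates 1, 2 and 3. It had 1509, 1429.5 and 1489 in loss of function replicates 1, 2 and 3. Every loss of function value lay under every control value, and control replicate 2 stood 20.7% above the control mean. TYRP1 fell 1.48-fold, from 2212 ± 398 to 1476 ± 41.3 (mean ± SD, n = 3), a log2 difference of -0.57 ± 0.09 (SE; adjusted p = 6.19e-05 in limma). Its log2 change was -0.43 without control replicate 2.

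DCT (ENSDARG00000006008), or dopachrome tautomerase, an early marker of the melanophore lineage, had 651, 820.0 and 694 in the control libraries, and 506, 550.4 and 546 with loss of function. The groups did not overlap, and control replicate 2 was again the highest. DCT fell 1.35-fold, from 722 ± 87.7 to 534 ± 24.8 (mean ± SD, n = 3), a log2 difference of -0.43 ± 0.08 (SE; adjusted p = 5.15e-04 in limma).

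TYR (ENSDARG00000039077), or tyrosinase, the rate-limiting enzyme of melanin synthesis, had 431, 326 and 334 in the control libraries, and 349, 382 and 352 with loss of function. Here the groups overlapped, and the highest value was that of control replicate 1. The means were 364 ± 58.6 and 361 ± 18.2 (SD, n = 3), so that the log2 difference was 0.00 (95% interval -0.21 to 0.22, adjusted p = 0.994 in limma). Without control replicate 1 it was 0.13 and still short of the threshold (adjusted p = 0.263 in limma).

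The melanosome matrix gene pmela (ENSDARG00000091298) had 1757, 2209 and 1759 in the control libraries, and 1684, 1670.1 and 1627 with loss of function. The groups did not overlap, but control replicates 1 and 3 lay close to the loss of function values. From 1909 ± 261 to 1660.3 ± 30.0 (mean ± SD, n = 3), pmela fell 1.14-fold or by a log2 difference of -0.19 ± 0.07 (SE; adjusted p = 0.0440 in limma). The call was lost without control replicate 2, when the log2 change was -0.08 (limma adjusted p = 0.227), and it was also lost in 5 other alternatives, as listed with the processing.

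The other gene named TYRP1 (ENSDARG00000029204), which is not a member, had 667, 985 and 667 in the control libraries, and 623, 631 and 539.6 with loss of function. It fell as well by a log2 difference of -0.35 ± 0.12 (SE; adjusted p = 0.0227 in limma). Without control replicate 2 its log2 change was -0.16 and no longer passed. The call was also lost without the intensity trend, in DESeq2 and without loss of function replicate 3, and it held in 12 of 16 alternatives. Over the alternatives its limma, edgeR or DESeq2 adjusted p ranged from 6.17e-04 to 0.165. The treatment of 50 bp reads that match both TYRP1 copies is unstated in the labels, and the division of reads between the copies is therefore uncertain.

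To compare the members with each other, their ratio was taken within each library, where a common scale factor and gene length drop out of the comparison between groups. TYR to TYRP1 (ENSDARG00000056151) was 0.220, 0.122 and 0.167 in the control libraries, and 0.231, 0.267 and 0.237 with loss of function. These groups did not overlap, although control replicate 1 lay close to loss of function replicate 1. The ratio of pmela to TYRP1 was 0.867 ± 0.0357 in controls and 1.13 ± 0.0389 in loss of function libraries (SD, n = 3), and the groups stood clear of each other. TYR to DCT was 0.662, 0.397 and 0.481 in the control libraries, and 0.690, 0.694 and 0.645 with loss of function, and these groups overlapped (exact permutation p = 0.20, 2-sided). DCT to TYRP1 and DCT to MITF overlapped as well, the first at 0.329 ± 0.0199 and 0.362 ± 0.0253 (SD, n = 3). Of 7 ratios computed, 4 did not overlap. Each of those had a 2-sided exact permutation p of 0.10, the smallest that 3 against 3 libraries allow, and 0.175 after adjustment over the 7. That smallest p lies above the threshold, so no ratio could have passed, whatever its values. The permutation test therefore cannot decide whether the members differed in their change, and the ratios are given as a description. The pairs were chosen after the values of the members had been seen. The share of other gene pairs without overlap was not computed, so the count of 4 has no background.

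**Figure D2:**
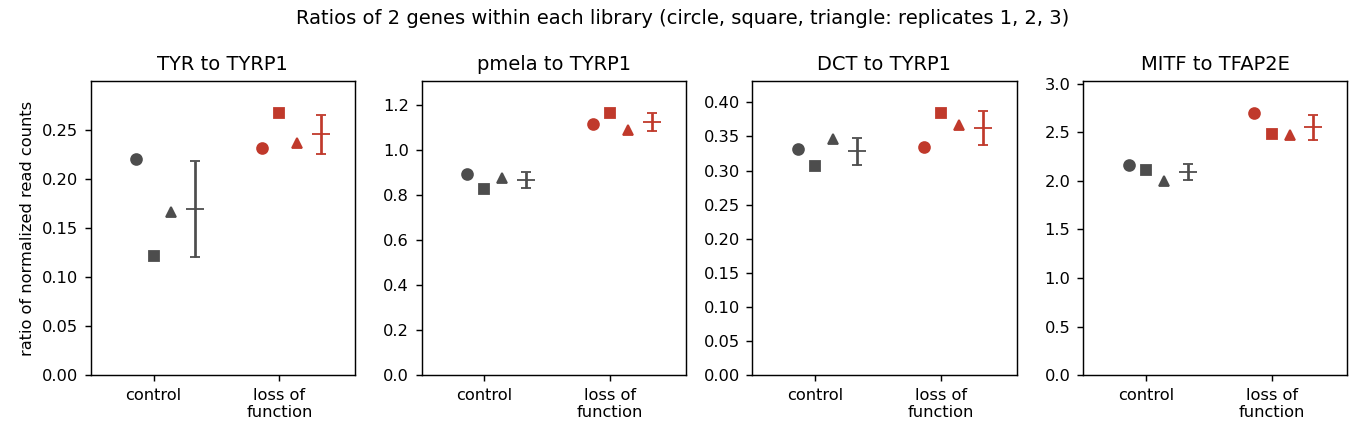
Ratio of the normalized read counts of 2 genes within a library (vertical axes, from 0); TYRP1 is ENSDARG00000056151 and MITF is ENSDARG00000003732, symbols are replicates 1, 2 and 3, and bars give the mean and SD of 3 libraries. TYR to TYRP1, pmela to TYRP1 and MITF to TFAP2E are higher in every loss of function library than in every control, and DCT to TYRP1 overlaps.

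Among the regulators, TFAP2E (ENSDARG00000008861), an AP-2 transcription factor expressed in the melanophore lineage of zebrafish, had 299.7, 323 and 308 in the control libraries, and 217, 204 and 203 with loss of function. The lowest control stood well above the highest loss of function library. TFAP2E fell 1.49-fold, from 309.9 ± 11.7 to 208 ± 8.08 (mean ± SD, n = 3), a log2 difference of -0.57 ± 0.09 (SE; adjusted p = 9.50e-05 in limma).

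The expressed MITF gene (ENSDARG00000003732) had 649.6, 681 and 616 in the control libraries, and 587, 507 and 501 with loss of function. Loss of function replicate 1 lay closest to the controls, with no overlap. MITF fell 1.22-fold, from 649 ± 32.4 to 532 ± 48.4 (mean ± SD, n = 3), a log2 difference of -0.29 ± 0.08 (SE; adjusted p = 0.00608 in limma). The second MITF gene (ENSDARG00000037833) had at most 1.01 in a control and 3.34 in a loss of function library, and was under the filter. MITF to TFAP2E was 2.09 ± 0.0834 in controls and 2.55 ± 0.131 in loss of function libraries (SD, n = 3), without overlap.

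EDNRB (ENSDARG00000089334), an endothelin receptor of the B type, which pigment cell precursors carry, had 439, 482 and 424 in controls, and its loss of function values were 347, 333 and 367. No loss of function value reached the lowest control. EDNRB fell 1.28-fold, from 448 ± 29.8 to 349 ± 17.2 (mean ± SD, n = 3), a log2 difference of -0.36 ± 0.08 (SE; adjusted p = 0.00196 in limma). Its copy ENSDARG00000053498 had at most 1.11 in any library. Among the ligands, edn3b was at 0 in 5 libraries and at 1.11 in loss of function replicate 3.

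Control replicate 2 held the highest value of 5 of the 6 members, TYR being the exception. The share of all genes that were highest in that library was not computed, so this count has no background. The profile of DCT over the 6 libraries was closest to those of zgc:171459, CMAS, USP48, NPAS1 and CCNT2, with Pearson's r of 0.995 to 0.999 on log2 values. TYRP1 (ENSDARG00000056151) had r = 0.97 with DCT, EDNRB 0.94, TFAP2E 0.91, pmela 0.88 and MITF (ENSDARG00000003732) 0.77, whereas TYR had -0.27. Of 12498 genes with a symbol and a mean of at least 50, 224 had an r of at least that of TYRP1. The same number was 737 for EDNRB, 1191 for TFAP2E, 1769 for pmela, 2868 for MITF and 6675 for TYR. These correlations run over 6 libraries that share the difference between the groups, and are given as a description.

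The melanophore list, which holds 4 of the members, gave 7 of 19 tested genes lower and 1 higher, with a median log2 change of -0.19. Among the 7 lower were the members TYRP1 (ENSDARG00000056151), DCT and pmela, so the list count partly repeats that of the members. In all 42.1% of the list was called, a share close to the 41.9% of all genes. The share called lower was 36.8%, beside 20.0% of all genes, and the 1 higher stands beside 21.9%. Beyond the genes above, GPNMB (ENSDARG00000062688), a Pmel relative of melanosomes, fell from 473 ± 60.5 to 339 ± 33.7 (SD, n = 3; log2 change -0.47, limma adjusted p = 0.00106). OCA2, a melanosome membrane transporter, fell from 70.3 ± 14.3 to 41.3 ± 6.50 (log2 change -0.74, limma adjusted p = 0.00705). The tetraspanin gene tspan36 rose, with a log2 change of 0.26 (limma adjusted p = 6.30e-04). KIT (ENSDARG00000043317), the receptor that supports melanophore migration and survival, did not pass the test, with 519.9 ± 31.2 and 572 ± 27.2 (SD, n = 3; log2 change 0.14, 95% interval -0.02 to 0.29, limma adjusted p = 0.142). SLC45A2, a melanosome transporter, also missed the threshold, at a log2 difference of -0.04 (95% interval -0.22 to 0.13).

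**Figure D3:**
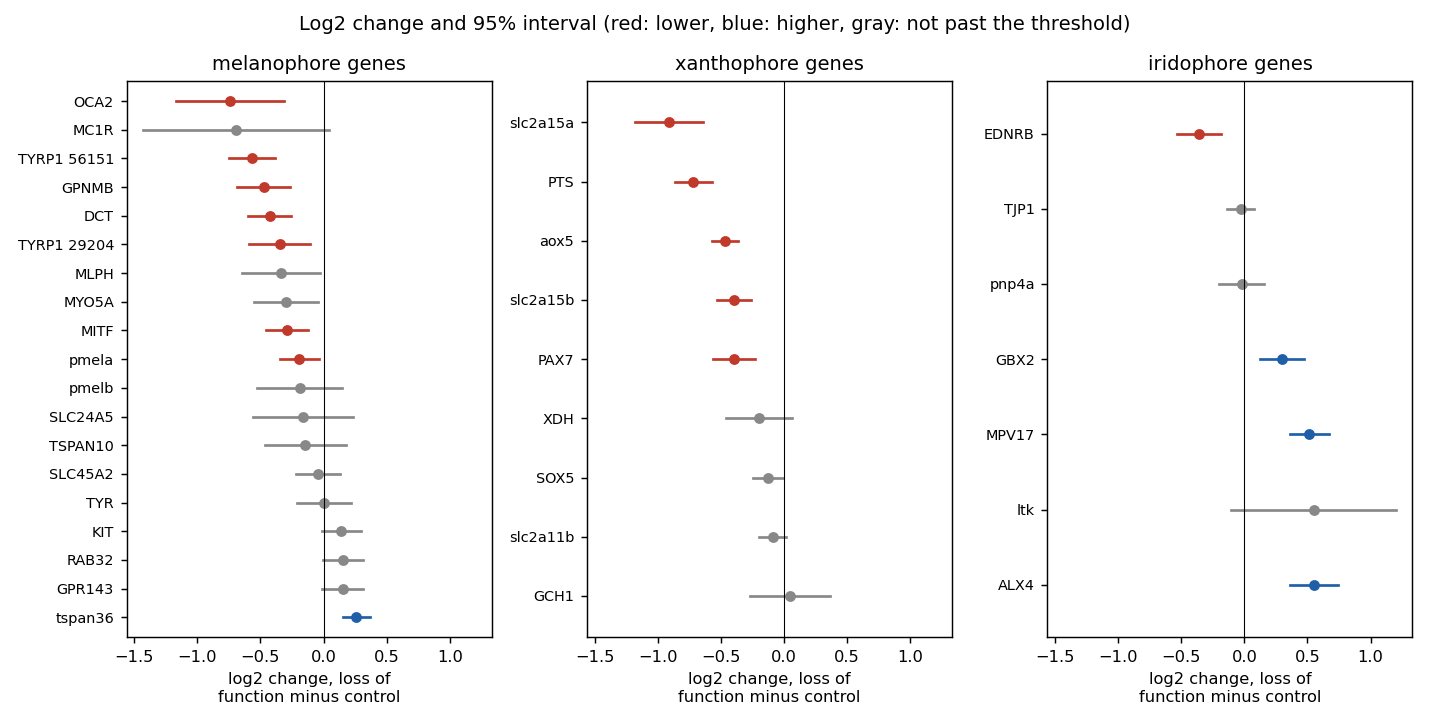
Log2 change in loss of function against control trunks (horizontal axis) with its 95% interval for the tested genes of 3 pigment cell lists; copies that share a name carry the last 5 digits of their ID. Xanthophore genes lie from -0.91 (slc2a15a) to 0.05 (GCH1), and ALX4, MPV17 and GBX2 of the iridophore list are higher.

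Of 9 xanthophore genes, 5 were lower in limma, with a median log2 change of -0.39, and 0 were higher by limma, by its unadjusted p under 0.05, by edgeR or by DESeq2. The share called lower was 55.6%, of only 9 genes, beside 20.0% of all genes. The 0 higher stand beside 21.9% of all genes called higher. The 5 included PTS, an enzyme of pteridine synthesis, which had 1918, 1537 and 1629 in the control libraries, and 1010.1, 1060.2 and 1009 with loss of function. These values left a wide gap between the groups, and PTS fell 1.64-fold or by a log2 difference of -0.72 ± 0.07 (SE; adjusted p = 8.27e-07 in limma). The transporter gene slc2a15a fell 1.88-fold (log2 change -0.91), its relative slc2a15b 1.32-fold (-0.40), the oxidase gene aox5 1.38-fold (-0.47) and the transcription factor gene PAX7 (ENSDARG00000070818) 1.31-fold (-0.39). PAX7 also serves in muscle precursors and neural tube. The other 4 xanthophore genes did not pass the test. Their log2 changes were 0.05 for GCH1 (95% interval -0.27 to 0.36), -0.20 for XDH, -0.13 for SOX5 and -0.09 for slc2a11b. The defining xanthophore markers csf1ra and gch2 were not matched to a row, so the list lacks them.

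The iridophore list gave 3 of 7 tested genes higher and 1, EDNRB, lower, with a median log2 change of 0.30. With so few genes, the 57.1% called are set beside 41.9% of all genes as a description. The 3 higher likewise stand beside 21.9% of all genes called higher. The homeobox gene ALX4 (ENSDARG00000088332) rose from 237 ± 16.9 to 349 ± 11.7 (SD, n = 3; log2 change 0.55, limma adjusted p = 1.15e-04). The mitochondrial membrane gene MPV17 rose from 393 ± 12.4 to 562 ± 20.1 (log2 change 0.52, limma adjusted p = 3.08e-05). GBX2, with a log2 change of 0.30 (limma adjusted p = 0.00738), no longer passed without loss of function replicate 3 (0.0550). The defining marker pnp4a, a purine enzyme gene, had 342 ± 27.2 and 337 ± 4.39 and did not pass the test (log2 change -0.02, 95% interval -0.20 to 0.16). The receptor gene ltk, the other defining marker, was low, with 10.1 to 20.7 in controls and 17.9 to 23.8 in loss of function libraries. All 3 genes that rose are also used outside pigment cells. Of 8 purine synthesis genes, ADSL rose (log2 change 0.22), and 7 did not pass the test in limma. In this list 12.5% were called, beside 41.9% of all genes. The number lower was 0, beside 20.0% of all genes called lower. It was also 0 at an unadjusted p under 0.05, in edgeR and in DESeq2.

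Of 19 neural crest transcription factor genes, 8 were lower and 1 higher, with a median log2 change of -0.20. The 8 include the member TFAP2E, and PAX7, which is also counted in the xanthophore list. The share called was 47.4%, near the 41.9% of all genes, and the share called lower 42.1%, beside 20.0%. The 1 higher stands beside 21.9% of all genes called higher. The defining markers SOX10 and FOXD3 did not pass the test. SOX10, which crest-derived pigment cells need, had 1199 ± 73.1 in controls and 1318 ± 23.4 in loss of function libraries (SD, n = 3; log2 change 0.14, 95% interval 0.01 to 0.26, limma adjusted p = 0.0697), and it passed as higher without control replicate 3 (0.0102). FOXD3, an early crest factor, had 1427 ± 96.9 and 1316 ± 68.4 (log2 change -0.12, 95% interval -0.25 to 0.02, limma adjusted p = 0.151), and it passed as lower without control replicate 2 (0.0395). The call of either gene depended on 1 control library. PAX3 (ENSDARG00000010192), a factor of crest precursors and of muscle precursors, fell from 659 ± 9.17 to 477 ± 11.5 (SD, n = 3; log2 change -0.47, limma adjusted p = 3.71e-05). The zinc finger gene zeb2a fell (log2 change -0.32, limma adjusted p = 1.96e-04). The 1 gene that rose, msx1b (0.15, limma adjusted p = 0.0463), passed in only 5 of 16 alternatives. Among the lower genes, SOX9 (ENSDARG00000003293) passed in 10 of 16 alternatives and SOX9 (ENSDARG00000043923) in 11.

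Of 15 tested genes for signals and receptors of the crest, 5 were lower and 2 higher, with a median log2 change of -0.09. The 46.7% called lie near the 41.9% of all genes, and 33.3% were called lower, beside 20.0%. The 2 higher stand beside 21.9% of all genes called higher. Around EDNRB, the type A endothelin receptor genes went apart. The gene ednrab rose from 886 ± 103 to 1484 ± 149 (SD, n = 3; log2 change 0.75, limma adjusted p = 2.53e-06), and EDNRA (ENSDARG00000011876) fell from 183 ± 24.8 to 132 ± 12.0 (-0.46, limma adjusted p = 0.00737). The Kit ligand gene kitlga rose, from 519 ± 28.3 to 663 ± 49.4 (SD, n = 3; log2 change 0.35, limma adjusted p = 0.00122). The colony-stimulating factor gene csf1a fell (-0.32, limma adjusted p = 0.00604), as did RET (-0.32, limma adjusted p = 6.14e-04), a receptor of enteric and other neurons, and the neuregulin gene NRG2 (ENSDARG00000086585; -0.77, limma adjusted p = 2.73e-04).

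**Figure D4:**
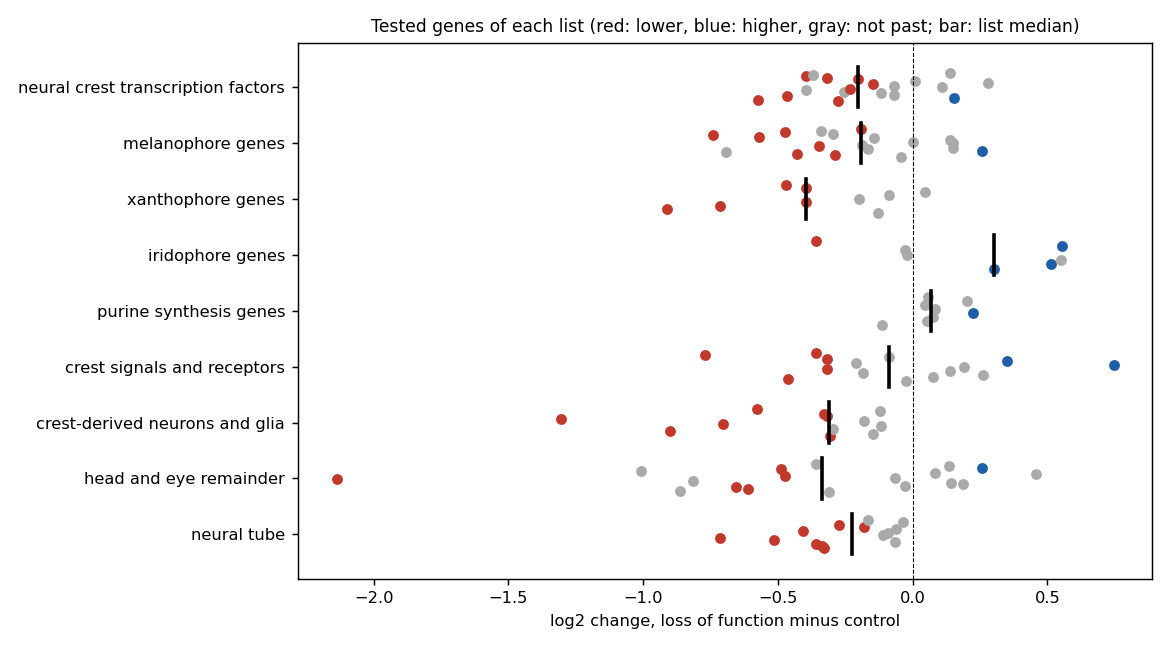
Log2 change (horizontal axis) of each tested gene of 9 lists, with the median of each list as a black bar and the median of all genes tested as a dashed line. The list medians run from -0.39 for xanthophore genes to 0.30 for iridophore genes.

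Cells of the retinal pigment epithelium and of the brain share genes with the members, so genes listed for head and eye were measured in the same libraries. Whether the RNA of these genes came from head or eye tissue was not tested. Their changes therefore do not measure the amount of such tissue. Of 18 tested head and eye genes, 5 were lower and 1 higher, so that 33.3% were called, under the 41.9% of all genes. The share called lower was 27.8%, beside 20.0%, and the 1 higher stands beside 21.9% of all genes called higher. Their summed normalized count was 2819 to 2958 in controls and 2557 to 2658 in loss of function libraries. No gene of this list was at 0 in all 6 libraries, but the retinal genes rx1 and rx2 were at 0 to 2.99. Those that fell included egr2a (log2 change -2.14), DMBX1 (ENSDARG00000009922, -0.65), hoxb1a (-0.61) and PAX6 (-0.48), and DLX2 (ENSDARG00000079964) rose (0.26). DLX2 lost its call in 7 alternatives. The tables do not say which of the 3 genes named RPE65 is the retinal one. ENSDARG00000007480 was at 16.8 ± 7.74 in controls and 8.64 ± 3.19 with loss of function (SD, n = 3; log2 change -0.86, adjusted p = 0.0886 in limma), and the other two had log2 changes of 0.08 and 0.14. None of the 3 passed the test, nor did the pigment epithelium marker rlbp1b (-0.07).

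In the neural tube list, 8 of 14 genes were lower in limma and 0 higher (also 0 at an unadjusted p under 0.05, in edgeR and in DESeq2). The share called lower was 57.1%, beside 20.0% of all genes, and the 0 higher stand beside 21.9% of all genes. The lower ones included PAX2 (ENSDARG00000028148, log2 change -0.72), ELAVL3 (-0.51), OLIG2 (-0.41) and ISL2 (ENSDARG00000003971, -0.36). Its summed count was 36892 to 42357 in controls and 34401 to 34641 in loss of function libraries. The median log2 change was -0.34 for the head and eye list and -0.23 for the neural tube, beside -0.39 for the members. The part of head and neural tissue in the changes of the members was not tested.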

How the data were processed

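Poly(A) RNA from 6 trunk libraries was sequenced without strand, with 50 bp reads on 2 lanes, per the labels. Without strand, reads of overlapping antisense genes are not told apart. The gene values the authors deposited are a normalized signal. Dividing each library by its smallest value above 0 gave whole numbers for 100% of genes (tolerance 0.001), as counts over a single size factor would. The submitters' processing notes name DESeq 1.8.3, HTSeq 0.5.3, STAR 2.4.0j, Bowtie 0.12.9, SAMtools and the genome build Zv9, without their roles. Exon tables carry no gene names and were not used.

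Genes that reached 10 in 3 or more libraries were tested with limma 3.58.1 (R 4.3.3, eBayes, trend on intensity) after a pseudocount of 1 and a log2 transform, a scale that understates changes of low genes. P-values are 2-sided and Benjamini-Hochberg adjusted over all 18917 genes, with a threshold of 0.05. The whole numbers served as read counts in alternative fits with DESeq2 1.42.0 and the quasi-likelihood test of edgeR 4.0.16. Further fits used a pseudocount of 0.5 or 5, no filter or a mean of at least 50, TMM or quantile scaling, no trend, the replicate number as a block, or 5 of the 6 libraries. The fits were tested on simulated data, in which fewer genes changed than were called here and each change was larger than those of the members. That test therefore does not cover changes as small or as widespread as these.

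Symbols were known for 18555 genes (74.9%). The 9 lists named 143 genes, of which 125 were matched to 137 IDs, some after a final a or b was dropped. The members and lists were chosen with earlier results of these data known, so their counts are no independent evidence. Named genes are the members, fixed markers, and per list and direction all calls up to 5, otherwise the 4 with the smallest adjusted p, and the 5 genes with the highest Pearson r with DCT. OCA2, the other TYRP1 gene, the ligand edn3b, SLC45A2, GCH1, XDH, slc2a11b, SOX5, TH and the SOX9 genes were chosen after their values were seen. EGR2 (ENSDARG00000042826), rx1 and rx2 were also named outside this rule. Some genes that the rule names are not reported here. Tables were joined in pandas 2.3.3 under Python 3.11.15.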

Additional observations from a re-analysis of the deposited data

How the results depend on the processing

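Over 16 alternatives, TYRP1 (ENSDARG00000056151), DCT, TFAP2E, EDNRB (ENSDARG00000089334) and MITF (ENSDARG00000003732) were lower in each, with a highest adjusted p of 0.0221, 0.0239, 0.00399, 0.0169 and 0.0452, all in limma without the intensity trend. TYR passed in none, and its log2 change ran from -0.07 to 0.13. The call of pmela was lost in 6: without a filter, without the trend, without control replicate 2 and without each loss of function library (log2 change -0.25 to -0.08 over all 16). The number of members called lower was therefore 4 or 5 throughout, and 5 with the replicate number as a block. Over all genes tested, same-numbered libraries did not vary together (r of their deviations -0.07, 0.01 and -0.02), so no pairing by number was seen across the table. With the block, 4055 genes were called higher and 3759 lower. On the recovered reads, edgeR called 4024 genes higher and 3919 lower, and DESeq2 3579 and 3265, beside 4143 and 3792 in limma. Leaving out 1 library gave 3142 to 4487 genes higher and 2968 to 3908 lower, and 36 to 48 list genes lower against 43 with all libraries. Of 1936 gene results, 1833 kept their side of the threshold, 67 lost a call, 36 gained one and 0 of the called ones reversed. Genes with few reads, such as RPE65 (ENSDARG00000007480) and ltk, have wide intervals.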

Other observations

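Of 12 tested genes of other crest derivatives, peripheral neurons and glia, 7 were lower and 0 higher in limma (also 0 higher at an unadjusted p under 0.05, in edgeR and in DESeq2), with a median log2 change of -0.31. The share called lower was 58.3%, beside 20.0% of all genes, and the 0 higher stand beside 21.9% of all genes. PHOX2A, a transcription factor of autonomic and hindbrain motor neurons, fell from 461 ± 46.4 to 248 ± 41.6 (SD, n = 3; log2 change -0.90, limma adjusted p = 8.55e-06). ISL1, a factor of motor and sensory neurons, fell by 0.31 on the log2 scale (limma adjusted p = 0.00145), and RET by 0.32. TH, an enzyme of catecholamine synthesis, had a mean of only 38.0 in controls and fell to 22.9 (log2 change -0.70, limma adjusted p = 0.0281). It passed in 9 of 15 alternatives. Hindbrain, spinal cord and crest-derived cells share several of these genes. In the same libraries egr2a and hoxb1a, placed in the head and eye list, were lower, and the tissue behind their falls was not tested. EGR2 (ENSDARG00000042826) of the head and eye list did not pass the test. It passed in 2 of 15 alternatives, with log2 changes of -1.01 to -0.60 over the 15. The part of these tissues in these values was not tested.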
